A study of Homo sapiens with 36 samples.

Results

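The interferon response genes described here are 42 protein-coding genes with well-known induction by interferon, chosen by symbol and found among the 26485 gene symbols of every library. All 42 had a count in at least 1 library. The cells were MDA-MB-231, an established line of human triple-negative breast cancer, which the labels describe as a xenograft cell line. Each of 4 lines carried 2 constructs, and the series asks what a shift between isoleucine tRNAs does to translation. Control cells had CRISPR interference, a block on transcription by a dead Cas9, against eGFP, and a control overexpression construct. UAU cells had the eGFP guide and overexpressed the isoleucine tRNA with the UAU anticodon. GAUi cells combined CRISPR interference against the Ile GAU tRNA with the control overexpression construct. Isoswitch cells had both changes. All 4 lines therefore carried a CRISPR interference construct and an overexpression construct, and no group was unmodified. Cells received 100 ug/mL cycloheximide, which holds ribosomes on mRNA, for 5 minutes. From each line came total RNA, a low fraction of the polysome gradient (monosomes with the first polysome peak) and a high fraction (heavier polysomes), each in 3 replicates, so that 12 groups gave 36 libraries of mRNA 3′ ends. The labels do not say whether replicates A, B and C were separate cultures, and p-values then measure only the spread between these samples. The tRNAs themselves are not read by such libraries.

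Interferons are secreted proteins that signal through surface receptors and the kinases JAK1 and TYK2. Type I and III interferons activate a transcription factor complex that holds STAT2 and IRF9 and binds the interferon-stimulated response element in the promoters of many genes. The products of these genes block viruses at many steps: they sense foreign RNA, degrade it, stop its translation, restrict entry or release of virus particles, or attach the ubiquitin-like protein ISG15 to other proteins. Tumour cells in culture often transcribe some of these genes at a basal level without added interferon.

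The response element was looked for first, and whether it bears on the changes between lines was not tested. RefSeq promoters of GRCh38.p14, from 250 bases before to 50 bases after each start site, were found for 34 of the 42 members. The core GAAANNGAAA, searched on both strands with overlaps allowed, lay in the promoter of 21 of these 34 genes (61.8%), against 1195 of 27305 genes in the whole table (4.38%). TTCNNNGAA, an element known from genes induced by interferon gamma, lay in 9 of 34 (26.5%) against 2560 of 27305 (9.38%). These matches describe the letters and do not show binding, and the members were chosen as genes induced by interferon. The core lay in 6 of 7 members with a promoter that were called lower in at least 2 of the 9 comparisons with control below. It also lay in the 1 called higher in at least 2, in 7 of 12 called in 1 and in 6 of 11 tested members called in 0. 5 promoters are printed from 160 bases before the start site to 10 bases after it, since they belong to 3 neighbouring IFIT genes, called in 7, 6 and 1 of the comparisons below, to BST2, which was lower in GAUi cells, and to IFITM1, which was higher. They lie at chr10:89392463-89392632 (+ strand) for IFIT1, chr10:89327837-89328006 (+ strand) for IFIT3, chr10:89414408-89414577 (+ strand) for IFIT5, chr19:17405621-17405790 (- strand) for BST2 and chr11:313880-314049 (+ strand) for IFITM1. Each reads 5′ to 3′ on the gene's strand, and capitals mark the core or its reverse complement.

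IFIT1: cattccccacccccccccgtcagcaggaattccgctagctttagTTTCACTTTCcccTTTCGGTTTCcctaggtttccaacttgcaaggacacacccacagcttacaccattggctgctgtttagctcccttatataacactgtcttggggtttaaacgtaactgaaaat
IFIT3: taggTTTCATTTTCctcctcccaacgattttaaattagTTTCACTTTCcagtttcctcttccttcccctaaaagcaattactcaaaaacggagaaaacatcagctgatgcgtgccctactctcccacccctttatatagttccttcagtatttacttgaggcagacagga
IFIT5: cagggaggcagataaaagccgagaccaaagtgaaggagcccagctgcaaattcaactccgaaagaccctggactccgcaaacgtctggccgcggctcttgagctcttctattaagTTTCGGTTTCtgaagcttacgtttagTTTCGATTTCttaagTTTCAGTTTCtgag
BST2: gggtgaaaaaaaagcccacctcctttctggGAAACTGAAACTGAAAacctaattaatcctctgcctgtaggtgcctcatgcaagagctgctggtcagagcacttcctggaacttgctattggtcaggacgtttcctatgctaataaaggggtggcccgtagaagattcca
IFITM1: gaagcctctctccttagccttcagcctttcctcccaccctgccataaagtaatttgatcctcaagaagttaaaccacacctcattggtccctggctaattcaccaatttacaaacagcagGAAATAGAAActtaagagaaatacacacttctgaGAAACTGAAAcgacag

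IFIT1 held 2 matches, from 116 to 94 bases before its start, and IFIT3 held 2, from 156 to 113 bases before. IFIT5 held 3 that lay closer, the last of them across the start site. BST2 held 2 overlapping matches, from 130 to 115 bases before its start. IFITM1, the member that rose in most comparisons, held 2 as well, so the element was present both in genes that fell and in one that rose.

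**Figure D1:**
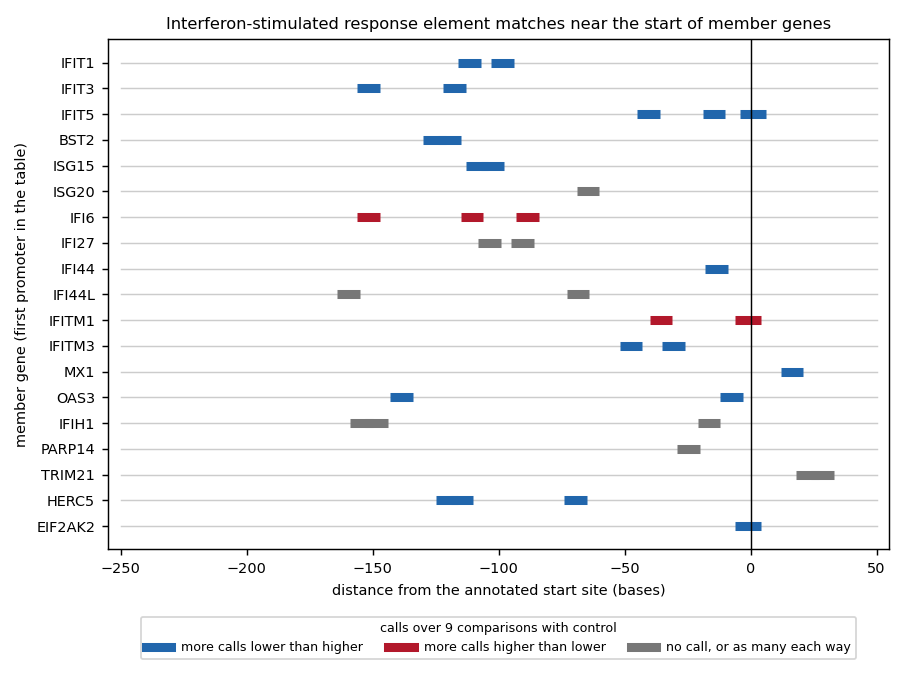
Positions of the response element core in the first listed promoter of the 19 members that hold it there, in bases from the annotated start site (x axis), one gene per line. Blue marks genes called lower more often than higher over the 9 comparisons of a line with control, red the reverse and grey neither; blue and red genes both carry the element.

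Library totals ran from 5192464 to 8974001 counts, and the 42 members took 0.0672% to 0.112% of them. The 6 markers of mesenchymal breast cancer cells had at least 16.8 CPM (counts per 1e+06 reads counted, scaled with TMM factors over all 36 libraries) in every library, with FN1 lowest and VIM highest (683 to 3703 CPM). Of 9 luminal markers, ESR1 and CDH1 stayed at or below 0.369 CPM and PGR and FOXA1 at or below 0.874 CPM, while KRT18 (87.3 to 389 CPM), KRT19 (55.03 to 200.1 CPM), KRT8 (12.6 to 51.6 CPM), EPCAM (6.195 to 27.2 CPM) and GATA3 (6.84 to 23.8 CPM) were present in every library. Of 12 leukocyte markers, CD3E, NKG7 and LILRA4 were at 0 in all 36 libraries, and only CD68 (3.15 to 17.7 CPM) was tested; of 7 fibroblast markers, only COL1A1 (0.273 to 4.82 CPM) was. No 2 replicates agreed within sampling noise. The chi-square per degree of freedom between replicates of total RNA was 8.01 to 22.3 in GAUi cells against 1.76 to 3.56 in the other lines, and SAMHD1 is an example given below. In the low fraction, control B stood apart from control A and C (14.7 and 12.8), which had 2.76 between them, and it enters every low-fraction comparison with control. In such bulk libraries, fewer cells with an mRNA and less mRNA per cell cannot be told apart.

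In control cells the members lay at both ends of the gradient, as genes at large did. ISG15, the ubiquitin-like protein, had 16.95, 26.8 and 20.8 CPM in the low and 71.6, 79.99 and 85.5 CPM in the high fraction of the 3 control replicates (log2 fold change 1.85, SE 0.14, adjusted p = 1.85e-08, by edgeR's quasi-likelihood test). BST2, which tethers budding virus particles to the cell surface, had 23.5, 28.5 and 20.96 CPM in the low and 76.5, 69.9 and 83.0 CPM in the high one (log2 fold change 1.63, SE 0.12, adjusted p = 1e-08). IFI35, a cytosolic leucine zipper protein, was the third highest (log2 fold change 1.36, SE 0.27, adjusted p = 0.000431). In all 3 the fractions did not overlap. At the other end was STAT2, a subunit of the interferon-activated complex, with 8.39, 11.1 and 12.1 CPM in the low and 2.82, 3.03 and 1.81 CPM in the high one (log2 fold change -2.02, SE 0.23, adjusted p = 1.91e-06). IFIT2 (log2 fold change -1.13, SE 0.17, adjusted p = 2.45e-05) and the RNA sensor IFIH1, also called MDA5 (log2 fold change -0.93, SE 0.35, adjusted p = 0.0275), followed, the last of these lost without low-fraction A or C or high-fraction C, with DESeq2 and without the filter (adjusted p up to 0.123). In all, 17 of 38 tested members passed, 9 higher and 8 lower in the high fraction, against 66% of all tested genes. The median over members was 0.06 and over all genes -0.01 on the log2 scale. These values are shares of each fraction's mRNA. Over all tested genes, 32.8% were higher and 33.2% lower in the high fraction, and each role below holds few genes. By role, 3 of the 4 membrane proteins were higher and none lower. Of the 6 genes of ISG15 conjugation and removal, 3 were higher and none lower, ISG15, UBE2L6 (1.12) and TRIM25 (0.49). Antiviral effectors had 1 higher and 3 lower of 13, and both called RNA sensors, IFIH1 and DDX58 (-0.51), were lower.

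Against this starting point, GAUi cells had the most members called lower in total RNA, and UAU and GAUi cells had the most called lower in the high fraction. A member was called at an adjusted p under 0.05 in the edgeR quasi-likelihood test, fitted over all genes of a fraction, and 38 members had enough counts to be tested in total RNA and 36 in each fraction. In GAUi total RNA, 11 members fell and 4 rose, against 10.1% of all tested genes called in either direction. In the low fraction 5 fell and none rose (3.4% of all genes), and in the high fraction 9 fell and 1 rose (10.1%). In isoswitch cells, 6 fell and 1 rose in total RNA (4.05%), 2 fell and none rose in the low fraction (2.58%), and 4 fell and 1 rose in the high fraction (11%). In UAU cells, 11 fell and 2 rose in the high fraction, against 28.7% of all genes, a share to be read beside the members' 13 of 36. Markers of other kinds moved there too: of 5 tested luminal markers 4 were lower (median -0.49), as was CD68 (-0.61), and their part in the members' values was not tested. In UAU total RNA no member was called (0.914% of all genes), with 8 at an unadjusted p under 0.05 and 0 in DESeq2. In the UAU low fraction none was called either (0.691%), with 6 at an unadjusted p under 0.05 and 1 in DESeq2. The smallest p in UAU total RNA belonged to IFIT2 (-0.50, adjusted p = 0.162) and IFIT1 (-0.59, adjusted p = 0.169), and in the low fraction to IFITM2 and IFIT2, given below. All the comparisons with control share the control libraries.

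Over all tested genes, calls leaned lower as well in each of the 9 comparisons, from 1570 higher and 1862 lower in the UAU high fraction and 541 and 707 in GAUi total RNA to 158 and 265 in the GAUi low fraction, 159 and 341 in isoswitch total RNA and 440 and 882 in the isoswitch high fraction. The median log2 fold change of the members was -0.32 in the GAUi high fraction and -0.25 in the UAU high fraction, where that of all genes was -0.005 and -0.003, and -0.03 in the isoswitch high fraction. Of the 38 tested members, 25 (65.8%) were called in at least 1 of the 9 comparisons and 12 (31.6%) in at least 2, against 39.9% and 15% of the 12792 genes tested in any fraction. The members were chosen with earlier results of these data known, so these shares are not independent evidence about them. The tests pooled the spread of all 4 lines. With only the 6 libraries compared, the count in GAUi total RNA fell to 5 and that in isoswitch total RNA was 11, and without control A the count in the GAUi high fraction was 3. With 1 library left out, the count in GAUi total RNA ran from 6 to 13, against 15 with all libraries. That in isoswitch total RNA ran from 2 to 4, against 7.

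**Figure D2:**
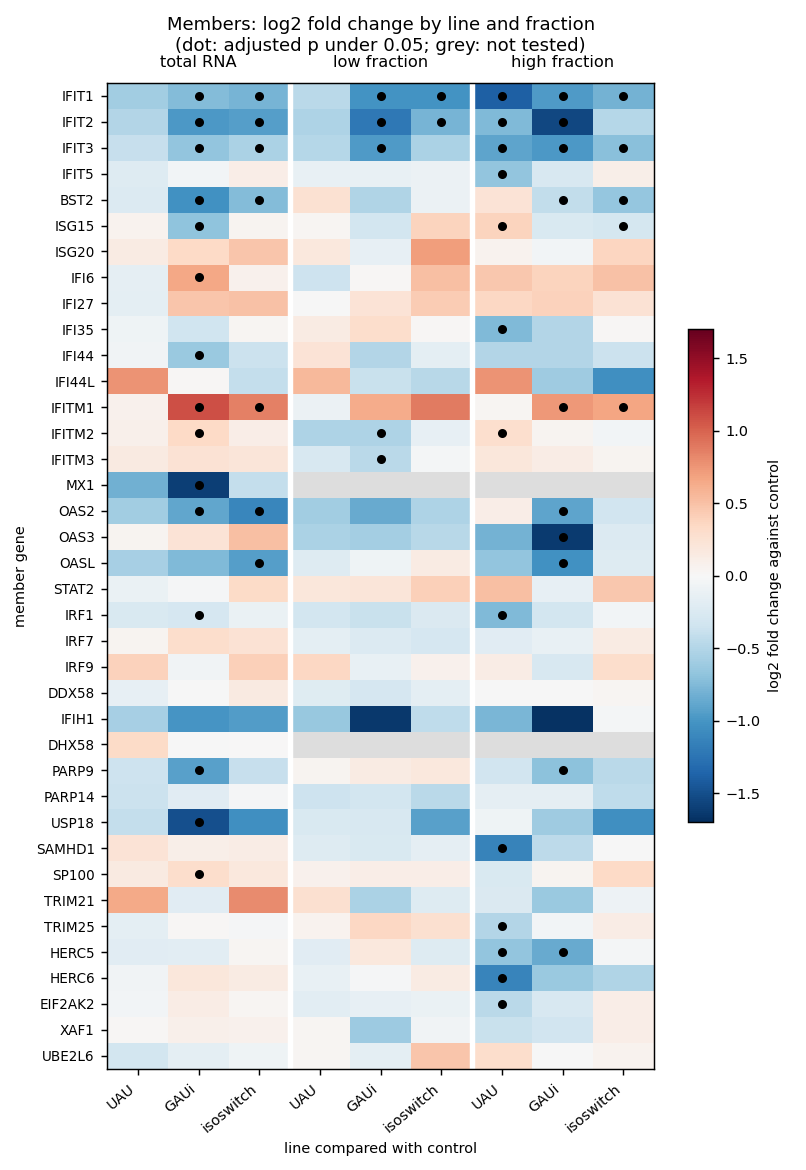
Log2 fold change against control (colour) of the 38 tested members (lines of the map) in UAU, GAUi and isoswitch cells within each fraction (columns). Dots mark an adjusted p under 0.05, and grey cells were not tested. IFIT1, IFIT2 and IFIT3 are blue in all 9 columns, and IFITM1 is red in GAUi and isoswitch cells.

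IFIT1, IFIT2 and IFIT3 carry tetratricopeptide repeats and form complexes that bind foreign RNA, IFIT1 by its unmethylated cap. They fell in 7, 6 and 6 of the 9 comparisons, more than any other member. IFIT2 in total RNA had 20.9, 22.98 and 19.1 CPM in control, 12.9, 12.7 and 18.3 CPM in UAU, 9.99, 12.8 and 9.51 CPM in GAUi and 9.30, 11.6 and 11.99 CPM in isoswitch cells. Every library of the other lines was below every control library. IFIT2 fell in GAUi (log2 fold change -0.98, SE 0.17, adjusted p = 0.00104) and isoswitch cells (log2 fold change -0.94, SE 0.17, adjusted p = 0.00226), and UAU did not pass (-0.50, adjusted p = 0.162). Low-fraction IFIT2 was 19.5, 19.2 and 20.6 CPM in control, 14.3, 13.2 and 13.8 CPM in UAU, 8.08, 8.43 and 9.17 CPM in GAUi and 11.1, 11.5 and 11.8 CPM in isoswitch cells. The 4 lines formed 4 ranges that did not overlap, with control highest, then UAU, isoswitch and GAUi. The fall in GAUi (log2 fold change -1.21, SE 0.14, adjusted p = 7.67e-05) and in isoswitch (log2 fold change -0.79, SE 0.14, adjusted p = 0.00306) passed, and that in UAU did not (-0.53, adjusted p = 0.0773). High-fraction IFIT2 was 7.78, 11.9 and 7.97 CPM in control, 5.34, 5.63 and 5.32 CPM in UAU, 2.90, 3.26 and 3.25 CPM in GAUi and 6.03, 8.71 and 4.94 CPM in isoswitch cells. GAUi libraries were the lowest and isoswitch libraries overlapped control. It fell in GAUi (log2 fold change -1.55, SE 0.24, adjusted p = 9.57e-05) and in UAU (log2 fold change -0.75, SE 0.22, adjusted p = 0.00974), and not in isoswitch (-0.49, adjusted p = 0.136). The GAUi calls and the isoswitch calls in total RNA and the low fraction held under all alternatives tried, and the UAU call was lost without control B (adjusted p = 0.103).

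IFIT1 in total RNA had 11.9, 10.01 and 14.6 CPM in control, 9.43, 8.99 and 5.47 CPM in UAU, 7.49, 8.13 and 6.54 CPM in GAUi and 6.87, 6.77 and 7.63 CPM in isoswitch cells. Control libraries were again all above the rest. IFIT1 fell in GAUi (log2 fold change -0.74, SE 0.19, adjusted p = 0.0199) and isoswitch cells (log2 fold change -0.79, SE 0.19, adjusted p = 0.0264). Its high-fraction level was 7.33, 4.69 and 7.43 CPM in control, 2.19, 2.01 and 2.998 CPM in UAU, 3.96, 2.13 and 3.90 CPM in GAUi and 3.88, 4.04 and 3.17 CPM in isoswitch cells. UAU was lowest (log2 fold change -1.39, SE 0.27, adjusted p = 0.000444), and GAUi (log2 fold change -0.97, SE 0.26, adjusted p = 0.0162) and isoswitch (log2 fold change -0.80, SE 0.25, adjusted p = 0.0374) passed too. With low-fraction levels of 11.3, 7.95 and 10.3 CPM in control, 5.66, 4.58 and 4.41 CPM in GAUi and 5.61, 5.59 and 3.28 CPM in isoswitch cells, both lines lay below control (GAUi -1.02, adjusted p = 0.0231; isoswitch -1.02, adjusted p = 0.0292), while UAU (6.48, 8.91 and 5.98 CPM) overlapped it. At these levels single libraries mattered: the UAU call in the high fraction held under every alternative, but the GAUi and isoswitch calls in all fractions were lost without control A or C, and with some libraries of their own line left out, where adjusted p reached 0.104 to 0.17. The fit of only the groups compared also lost the GAUi call in total RNA and the isoswitch call in the low fraction, and DESeq2 the isoswitch call in the high fraction.

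IFIT3 in total RNA had 36.3, 30.9 and 40.5 CPM in control, 23.5, 26.7 and 30.4 CPM in UAU, 22.7, 21.6 and 24.5 CPM in GAUi and 30.3, 24.5 and 19.5 CPM in isoswitch cells. It fell in GAUi (log2 fold change -0.67, SE 0.14, adjusted p = 0.0059) and isoswitch cells (log2 fold change -0.54, SE 0.14, adjusted p = 0.0386), with no overlap with control. High-fraction libraries had 14.3, 12.96 and 13.95 CPM in control, 7.53, 6.24 and 7.90 CPM in UAU, 6.86, 6.52 and 7.47 CPM in GAUi and 7.61, 8.71 and 9.17 CPM in isoswitch cells. All 9 libraries of the other lines lay below the lowest control library, and UAU (log2 fold change -0.90, SE 0.16, adjusted p = 0.000148), GAUi (log2 fold change -0.98, SE 0.16, adjusted p = 0.000174) and isoswitch (log2 fold change -0.71, SE 0.16, adjusted p = 0.003) all passed, under every alternative. Low-fraction GAUi libraries (12.3, 8.92 and 11.5 CPM) were below control (22.4, 18.7 and 21.8 CPM), a fall that passed (log2 fold change -0.96, SE 0.17, adjusted p = 0.0029) where isoswitch did not (-0.53, adjusted p = 0.0945). The isoswitch call in total RNA was lost without control A or C, without isoswitch B or C and with a replicate term (adjusted p up to 0.222).

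IFIT5, the fourth gene of the family in this set and a binder of RNA with a triphosphate end, was called in 1 of the 9 comparisons. In total RNA it had 25.98, 22.8 and 24.5 CPM in control and 22.5, 23.3 and 26.7 CPM in GAUi cells, ranges that overlapped (-0.04, adjusted p = 0.866). That call was in the UAU high fraction, where it fell from 15.8, 17.5 and 12.7 CPM in control to 8.35, 12.1 and 9.13 CPM (log2 fold change -0.67, SE 0.18, adjusted p = 0.00536), under every alternative. In the GAUi high fraction it had 14.02, 14.7 and 9.42 CPM (-0.27, adjusted p = 0.328). The difference between IFIT5 and its neighbours was not tested. The IFIT genes lie together on chromosome 10, from IFIT2 at 89302046 to the end of IFIT5 at 89420997 (GRCh38.p14), and the bounds of LIPA, a lysosomal lipase gene, overlap all 4. The strand used in counting is not given in the sources used here, so reads of LIPA and the IFIT genes may not be fully separate. LIPA was not called in total RNA (-0.24, adjusted p = 0.438 in GAUi) but was lower in the high fraction of UAU (-1.04, adjusted p = 0.000352) and GAUi cells (-0.67, adjusted p = 0.0231), and its part in the IFIT values was not tested.

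**Figure D3:**
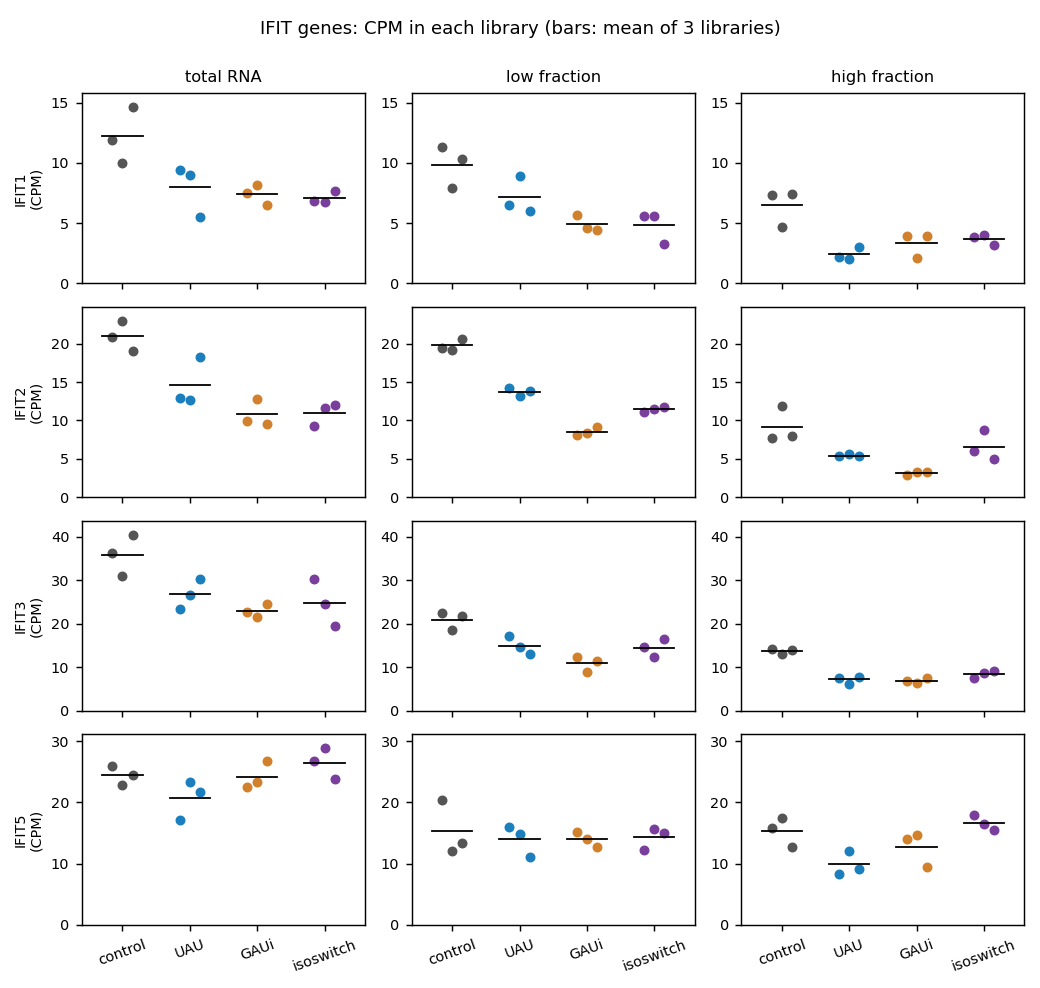
CPM (y axes, from 0) of IFIT1, IFIT2, IFIT3 and IFIT5 in each of the 36 libraries, by fraction (columns) and line (x axis). Points are libraries A, B and C from left to right and bars their mean. The means of IFIT1, IFIT2 and IFIT3 are highest in control in every fraction, and IFIT5 was called lower in the UAU high fraction alone of the 9 comparisons with control.

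Of the 4 members that restrict viruses at membranes, BST2 and IFITM1 moved in opposite directions in the same 2 lines. BST2 in total RNA had 34.7, 35.7 and 36.5 CPM in control, 32.9, 28.6 and 28.3 CPM in UAU, 19.01, 13.9 and 20.5 CPM in GAUi and 18.6, 20.2 and 25.4 CPM in isoswitch cells. GAUi and isoswitch libraries lay below all others. BST2 fell in GAUi (log2 fold change -1.02, SE 0.14, adjusted p = 0.000164) and isoswitch cells (log2 fold change -0.74, SE 0.14, adjusted p = 0.00341), under every alternative, and not in UAU (-0.23, adjusted p = 0.494). On heavy polysomes it had 76.5, 69.9 and 83.0 CPM in control, 81.7, 75.2 and 108 CPM in UAU, 58.2, 57.2 and 55.2 CPM in GAUi and 39.2, 51.3 and 56.4 CPM in isoswitch cells. The isoswitch line was lower than control (log2 fold change -0.65, SE 0.13, adjusted p = 0.000853) and than UAU (log2 fold change -0.88, SE 0.12, adjusted p = 2.69e-06), with no overlap with either. GAUi passed as well (log2 fold change -0.42, SE 0.12, adjusted p = 0.0283), although that call was lost without control A or C or without any 1 GAUi library (adjusted p up to 0.0943). No line passed in the low fraction, where GAUi had 18.3, 19.2 and 13.4 CPM and control 23.5, 28.5 and 20.96 CPM (-0.51, adjusted p = 0.173).

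IFITM1, a membrane protein that hinders fusion of viruses with the cell, was the member called higher most often, in 4 of 9 comparisons. In total RNA it had 4.42, 4.79 and 3.43 CPM in control, 3.72, 4.88 and 4.51 CPM in UAU, 10.97, 7.12 and 9.21 CPM in GAUi and 9.30, 6.89 and 6.82 CPM in isoswitch cells. It rose in GAUi (log2 fold change 1.10, SE 0.21, adjusted p = 0.00294) and isoswitch cells (log2 fold change 0.86, SE 0.22, adjusted p = 0.0325), whose libraries were all above those of control and UAU. Its level in the high fraction was 7.44, 6.34 and 8.34 CPM in control, 6.71, 7.24 and 8.31 CPM in UAU, 12.96, 12.3 and 11.04 CPM in GAUi and 11.2, 10.7 and 13.4 CPM in isoswitch cells. The same lines were higher there (GAUi 0.73, adjusted p = 0.00547; isoswitch 0.67, adjusted p = 0.00902), again without overlap. Isoswitch low fractions had 8.12, 7.03 and 5.53 CPM against 3.89, 3.59 and 2.99 CPM in UAU, a difference that passed (log2 fold change 0.99, SE 0.24, adjusted p = 0.0256), while GAUi (0.64, adjusted p = 0.181) and isoswitch (0.89, adjusted p = 0.0648) against control did not. Both GAUi calls held under every alternative. The isoswitch call in total RNA was lost without any 1 of its 6 libraries (adjusted p up to 0.163), the one in the high fraction without isoswitch C (0.0514), and the one against UAU in the low fraction without UAU B or C or isoswitch A or B (0.135).

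IFITM2, which acts in endosomes, was called higher in 2 of the 9 comparisons and lower in 1. A difference between fractions was not shown for it. By the quasi-likelihood test, its change in the high fraction less that in total RNA was -0.30 in GAUi (adjusted p = 0.332) and 0.23 in UAU cells (adjusted p = 0.377). The low fraction was not tested against total RNA. IFITM2 rose in GAUi total RNA, from 61.9, 64.3 and 78.1 CPM in control to 95.03, 84.6 and 81.7 CPM (log2 fold change 0.34, SE 0.10, adjusted p = 0.0428). It fell in the low fraction, from 109.6, 117 and 102 CPM in control to 75.6, 85.2 and 68.1 CPM in GAUi (log2 fold change -0.52, SE 0.12, adjusted p = 0.0213), with 90.5, 67.3 and 71.3 CPM in UAU just short of the threshold (-0.52, adjusted p = 0.0546). IFITM3, its close relative, also fell in the GAUi low fraction, from 302, 319 and 299.6 CPM to 209, 253 and 209 CPM (log2 fold change -0.46, SE 0.11, adjusted p = 0.0233). In both genes the low-fraction ranges of control and GAUi did not overlap. IFITM2 rose in the high fraction of UAU cells, from 97.4, 116 and 118 CPM to 134, 116 and 149 CPM (log2 fold change 0.29, SE 0.09, adjusted p = 0.02), ranges that overlapped. The total RNA call was lost without control A or B, GAUi A, with a replicate term and with only the groups compared, the low-fraction call without control A or GAUi A or C, and the high-fraction call without control A or UAU A or C (adjusted p up to 0.185, 0.122 and 0.153). The IFITM3 call was lost without control C or GAUi A or C and with a replicate term (up to 0.14). IFITM1, IFITM2 and IFITM3 lie side by side on chromosome 11 (IFITM2 at 307816 to 309395, GRCh38.p14) and are near-identical over long stretches, so how reads were split among them is uncertain.

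**Figure D4:**
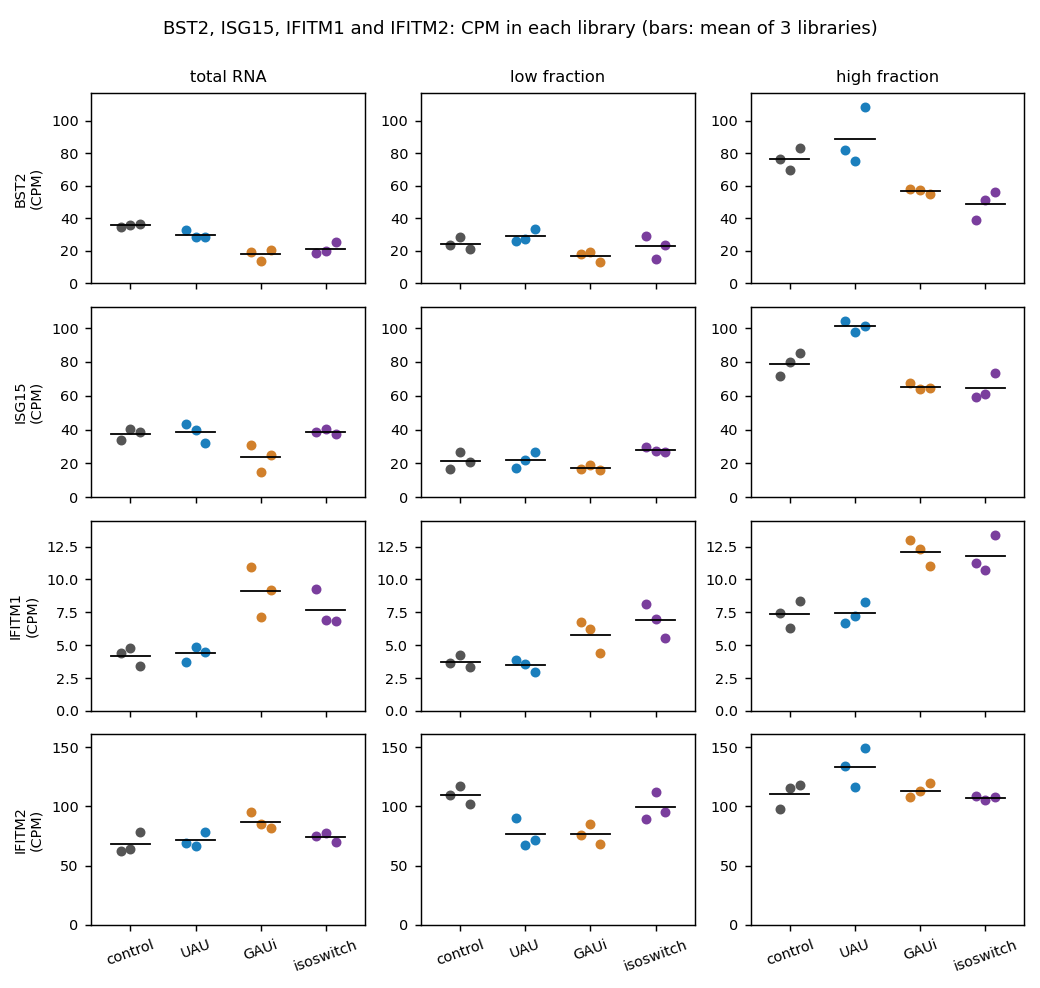
CPM (y axes, from 0) of BST2, ISG15, IFITM1 and IFITM2 in each of the 36 libraries, by fraction (columns) and line (x axis). Points are libraries A, B and C from left to right and bars their mean. BST2 is lower and IFITM1 higher in GAUi and isoswitch cells than in control and UAU cells in total RNA and the high fraction.

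ISG15, UBE2L6 (the conjugating enzyme), HERC5 (the main ligase in human cells), the ligase TRIM25 and USP18, which removes ISG15, were grouped with HERC6. Whether HERC6 attaches ISG15 in these cells is not shown here. These 6 members make up the role of ISG15 conjugation and removal. In the high fraction 3 of them fell and 1 rose in UAU cells, and 1 fell and none rose in GAUi and in isoswitch cells. Over all tested genes 28.7%, 10.1% and 11% were called there in UAU, GAUi and isoswitch cells. In the GAUi high fraction all 6 estimates were below 0 (median -0.43). ISG15 in total RNA had 33.9, 40.2 and 38.5 CPM in control, 43.04, 39.8 and 32.1 CPM in UAU, 30.8, 15.0 and 24.7 CPM in GAUi and 38.7, 40.1 and 37.4 CPM in isoswitch cells. GAUi alone lay below control (log2 fold change -0.69, SE 0.18, adjusted p = 0.0174), with library B lowest. The ISG15 level in the high fraction was 71.6, 79.99 and 85.5 CPM in control, 104, 97.6 and 101 CPM in UAU, 67.5, 64.04 and 64.8 CPM in GAUi and 59.5, 60.8 and 73.5 CPM in isoswitch cells. It rose in UAU (log2 fold change 0.37, SE 0.09, adjusted p = 0.00343), above every library of the other lines, and under every alternative. It fell in isoswitch cells (log2 fold change -0.30, SE 0.10, adjusted p = 0.0423), whose range overlapped control, and isoswitch was below UAU (log2 fold change -0.67, SE 0.09, adjusted p = 2.76e-06). No line passed in the low fraction, with 0.38, adjusted p = 0.277 in isoswitch cells. The GAUi call was lost without control B or C and with only the groups compared (adjusted p up to 0.0875), and the isoswitch call without control B or C or isoswitch A or B, with DESeq2, with RLE factors and with only the groups compared (up to 0.211).

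HERC5 fell in the high fraction of both single lines, with 20.1, 10.9 and 14.9 CPM in control, 9.58, 10.7 and 8.99 CPM in UAU, 10.7, 8.50 and 6.33 CPM in GAUi and 16.2, 11.97 and 17.6 CPM in isoswitch cells. UAU and GAUi lay below control (UAU -0.67, adjusted p = 0.0141; GAUi -0.85, adjusted p = 0.0083), while isoswitch overlapped control (-0.03, adjusted p = 0.945) and was above GAUi (log2 fold change 0.82, SE 0.21, adjusted p = 0.00807) and UAU (log2 fold change 0.64, SE 0.21, adjusted p = 0.014). In total RNA HERC5 passed in no line (-0.18, adjusted p = 0.29 in GAUi). Control A was the highest of the 12 libraries, and without it neither single line passed (adjusted p = 0.221 in UAU), nor did GAUi without GAUi C (up to 0.131). The differences of isoswitch from GAUi and from UAU were lost without GAUi C and without isoswitch A or C (0.0583 and 0.0668). TRIM25, a ligase that also activates the sensor RIG-I, fell in the UAU high fraction from 84.2, 69.2 and 67.1 CPM to 46.8, 46.5 and 61.2 CPM (log2 fold change -0.50, SE 0.11, adjusted p = 0.00131). HERC6 was also called there (-1.12), and USP18 fell in GAUi total RNA (-1.49, adjusted p = 0.0435) at 0.434 to 0.891 CPM. UBE2L6 passed in no line. The TRIM25 call held under every alternative, that of HERC6 was lost without any 1 of its 6 libraries (adjusted p up to 0.13), and that of USP18 without any but GAUi C and with only the groups compared (up to 0.23).

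The OAS enzymes make the second messenger that switches on RNase L, and OASL is a relative without that activity that boosts RIG-I. OAS2 in total RNA had 6.16, 7.05 and 6.32 CPM in control, 4.38, 3.47 and 4.92 CPM in UAU, 5.10, 2.03 and 3.42 CPM in GAUi and 2.56, 3.57 and 2.86 CPM in isoswitch cells. Control was above all other libraries, and GAUi (log2 fold change -0.88, SE 0.26, adjusted p = 0.0356) and isoswitch (log2 fold change -1.11, SE 0.27, adjusted p = 0.0219) passed. OAS2 also fell in the high fraction of GAUi, to 3.35, 2.27 and 2.60 CPM from 4.40, 5.10 and 6.16 CPM (log2 fold change -0.90, SE 0.29, adjusted p = 0.044), while UAU (3.56, 8.05 and 5.45 CPM) spread over both ranges. OASL fell in isoswitch total RNA, from 3.75, 5.22 and 4.61 CPM to 2.56, 2.46 and 2.05 CPM (log2 fold change -0.94, SE 0.26, adjusted p = 0.0448), and in the GAUi high fraction, from 4.40, 4.41 and 3.44 CPM to 1.68, 2.55 and 1.79 CPM (log2 fold change -1.02, SE 0.29, adjusted p = 0.0224). OAS3 was called in the GAUi high fraction as well (-1.63, adjusted p = 0.0183), where control libraries themselves ran from 1.45 to 4.51 CPM. All these genes are at a few CPM. The isoswitch calls of OAS2 and OASL in total RNA and the GAUi call of OAS2 in the high fraction were lost without any 1 of the 6 libraries compared, the OAS2 call in GAUi total RNA without any but GAUi A, and the OASL call in the GAUi high fraction without control A or B or GAUi A or C (adjusted p up to 0.192). DESeq2 also lost the OASL calls and the OAS2 call in the GAUi high fraction, and the fit of only the groups compared lost OAS2 in GAUi total RNA. The OAS3 call was lost without control A or GAUi B or C (up to 0.321).

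Of the other effectors, SAMHD1 and EIF2AK2 were called in the UAU high fraction and SP100 and MX1 in GAUi total RNA. SAMHD1, which depletes nucleotides, had 8.004, 6.90 and 4.71 CPM in control and 2.60, 3.42 and 3.13 CPM in UAU cells, without overlap (log2 fold change -1.14, SE 0.24, adjusted p = 0.000776). EIF2AK2, the kinase PKR that stops translation upon double-stranded RNA, fell there from 56.03, 57.8 and 48.9 CPM to 39.7, 32.99 and 43.9 CPM (log2 fold change -0.46, SE 0.11, adjusted p = 0.00223). Neither passed in total RNA, where SAMHD1 had 5.10, 15.3 and 14.6 CPM in the 3 GAUi libraries, with A far below the others. SP100, a nuclear body protein, rose in GAUi total RNA (0.30, adjusted p = 0.0472), and MX1, a dynamin-like GTPase tested only in total RNA, fell there (-1.60, adjusted p = 0.0392) at under 1 CPM in each GAUi library. The UAU calls of SAMHD1 and EIF2AK2 held under every alternative. The MX1 call was lost without any 1 of the 6 libraries and with only the groups compared (adjusted p up to 0.124), and that of SP100 without any library but GAUi A, without the filter, with a replicate term and with only the groups compared (up to 0.19). ISG20 and TRIM21 were called in none of the 9. MX2, OAS1, RSAD2 and CMPK2 were too low to test in any fraction, with 41, 32, 8 and 7 counts over all 36 libraries. RSAD2, known as viperin, had a count in 6 libraries and CMPK2 in 5; a count of 0 allows up to 0.326 to 0.604 CPM in these libraries (3 counts, counting error only).

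Among the transcription factors, IRF1, which is itself induced by interferon gamma and drives many of the other genes, fell in the UAU high fraction. It had 38.4, 37.2 and 39.5 CPM in control, 20.9, 18.7 and 27.4 CPM in UAU, 31.2, 30.6 and 30.9 CPM in GAUi and 45.5, 30.9 and 34.7 CPM in isoswitch cells. The UAU libraries were the lowest (log2 fold change -0.75, SE 0.13, adjusted p = 0.000175), and isoswitch was above UAU (log2 fold change 0.70, SE 0.14, adjusted p = 0.000158), both under every alternative. In total RNA IRF1 had 47.1, 48.8 and 51.3 CPM in control and 38.7, 42.6 and 40.9 CPM in GAUi cells, a small fall at the threshold (log2 fold change -0.29, SE 0.09, adjusted p = 0.0497) that was lost under 10 of 11 alternatives (up to 0.168). STAT2, IRF7 and IRF9, parts and products of the signalling complex, were called in none of the 9 comparisons. Nor were the RNA sensors: DDX58, the sensor RIG-I, had log2 fold changes of -0.01, 0.00 and 0.04 in the high fraction of UAU, GAUi and isoswitch cells, and DHX58 (LGP2) was tested in total RNA only. IFIH1 had 1.47, 1.52 and 0.906 CPM in control and 0.152, 0.708 and 0.325 CPM in GAUi high fractions, a difference that did not pass at so few counts (-1.67, adjusted p = 0.0592).

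PARP9, an ADP-ribosyltransferase that works with the ligase DTX3L, fell in GAUi cells. In total RNA it had 28.1, 29.6 and 24.1 CPM in control, 19.9, 19.4 and 23.8 CPM in UAU, 10.2, 14.7 and 19.3 CPM in GAUi and 19.95, 18.2 and 24.5 CPM in isoswitch cells. GAUi lay below control (log2 fold change -0.93, SE 0.18, adjusted p = 0.0024), with library A lowest, and the call held under every alternative, the one without that library included. PARP9 fell in the high fraction too, from 16.4, 13.8 and 13.4 CPM to 6.86, 9.63 and 10.6 CPM (log2 fold change -0.70, SE 0.16, adjusted p = 0.00648), a call lost without control A or GAUi A (adjusted p up to 0.0674). DTX3L, whose gene overlaps PARP9, changed by -0.60 in GAUi total RNA (adjusted p = 0.00215) and -0.54 in the GAUi high fraction (adjusted p = 0.0131), and without the strand of counting their reads may not be fully separate. Of the remaining interferon-induced proteins, IFI6, a protein that inhibits apoptosis, rose in GAUi total RNA (0.66, adjusted p = 0.032) and IFI44 fell there (-0.63, adjusted p = 0.0409), while IFI35 fell in the UAU high fraction (-0.75, adjusted p = 0.0053). The IFI6 call was lost without control A or B or GAUi B, with DESeq2 and with only the groups compared (adjusted p up to 0.163), and that of IFI44 without control B or C or GAUi C and with only the groups compared (up to 0.168), while that of IFI35 held. IFI27, IFI44L, PARP14 and XAF1 were called in none of the 9.

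The isoswitch line was then set against each single line. Against GAUi, no member was called in total RNA (0.113% of all genes; 8 members at an unadjusted p under 0.05 and 1 called in DESeq2) or in the low fraction (0%; 10 and 1). The smallest p in total RNA belonged to ISG15 (0.73, adjusted p = 0.0903) and TRIM21 (1.00, adjusted p = 0.101), and in the low fraction to ISG15 (0.70, adjusted p = 0.432) and IFITM3 (0.43, adjusted p = 0.434). On heavy polysomes 4 members were higher in isoswitch than in GAUi cells and none lower, against 15.8% of all genes: IFIT2 (1.06), OAS3 (1.40), HERC5 (0.82) and EIF2AK2 (0.38). Against UAU, 13 members were called in the high fraction, 9 higher and 4 lower, beside 41.6% of all genes. BST2, ISG15, IFITM2 and IFI44L were the 4 lower, and SAMHD1 (log2 fold change 1.13, SE 0.24, adjusted p = 0.000444), IFIT5 (log2 fold change 0.77, SE 0.18, adjusted p = 0.000876) and IRF1 were among the higher. In total RNA 2 passed (3.42%), IFI27 higher (0.67, adjusted p = 0.0439) and BST2 lower (-0.51, adjusted p = 0.0471), and in the low fraction 1, IFITM1 (4.25%), with IFITM2 next (0.38, adjusted p = 0.0896). The BST2 call in total RNA was lost without any 1 UAU library or without isoswitch A or B (adjusted p up to 0.216), and that of IFI27 without any of these or with DESeq2 or a replicate term (up to 0.216). Against GAUi in the high fraction, OAS3 was lost without any library but isoswitch B and EIF2AK2 without GAUi C or isoswitch A (up to 0.126 and 0.1).

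Whether UAU overexpression acted alike with and without the GAU knockdown was tested as an interaction, that is, the isoswitch-to-GAUi difference less the UAU-to-control difference on the log2 scale. In the high fraction 18 of 36 members passed, 15 above 0 and 3 below, against 35.7% of all genes, where 2172 were above and 2104 below. Genes of the marker lists moved there as well. All 5 tested luminal markers, which were present in every library, were above 0 and 3 of them called. Their median was 0.99 against 0.56 for the members, and CD68 was called at 0.87. The part of these genes in the members' values was not tested. IFIT2 (log2 fold change 1.81, SE 0.33, adjusted p = 0.000127) had a fold change of -0.75 for UAU overexpression in eGFP cells and 1.06 in GAUi cells. IFIT1 (log2 fold change 1.55, SE 0.40, adjusted p = 0.00324) and IFIT3 (log2 fold change 1.17, SE 0.24, adjusted p = 0.000323) also lay above 0. So did HERC5 (log2 fold change 1.49, SE 0.29, adjusted p = 0.000235), OASL (log2 fold change 1.48, SE 0.41, adjusted p = 0.00548), IRF1 (log2 fold change 1.01, SE 0.19, adjusted p = 0.000144), SAMHD1 (log2 fold change 1.57, SE 0.32, adjusted p = 0.000422) and EIF2AK2 (log2 fold change 0.85, SE 0.15, adjusted p = 0.000106). By role, 9 of 12 antiviral effectors passed, all above 0. Of the 36 members, 22 (61.11%) had UAU and GAUi estimates both below 0, against 4258 of 11979 genes (35.55%). In 19 of the 22 the isoswitch estimate was above both, as it was in 3000 of the 4258 genes (70.46%); the 3 estimates share the control libraries, so much of that step follows from the choice of genes low in both. The 3 below 0 were BST2 (-0.46), ISG15 (-0.41) and IFITM2 (-0.38), 3 genes with UAU estimates above 0 in eGFP cells. These 3 calls were lost when single libraries were left out (control A in each, adjusted p up to 0.157), that of BST2 also with DESeq2, and those of IFIT1, IFIT2, IFIT3, OASL, IRF1, HERC5, SAMHD1 and EIF2AK2 held under every alternative. IFITM1 had an interaction of -0.09 (adjusted p = 0.797).

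In total RNA no interaction passed (0.0243% of all genes), with 9 members at an unadjusted p under 0.05 and 0 called in DESeq2, the smallest p being those of PARP9 (0.89, adjusted p = 0.204) and IRF1 (0.44, adjusted p = 0.267). In the low fraction IFITM2 was the 1 call (log2 fold change 0.90, SE 0.17, adjusted p = 0.0395; 0.233% of all genes), and it was lost without single libraries of each line and with the replicate block (adjusted p up to 0.164); IFIT2 came next (0.95, adjusted p = 0.0514).

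**Figure D5:**
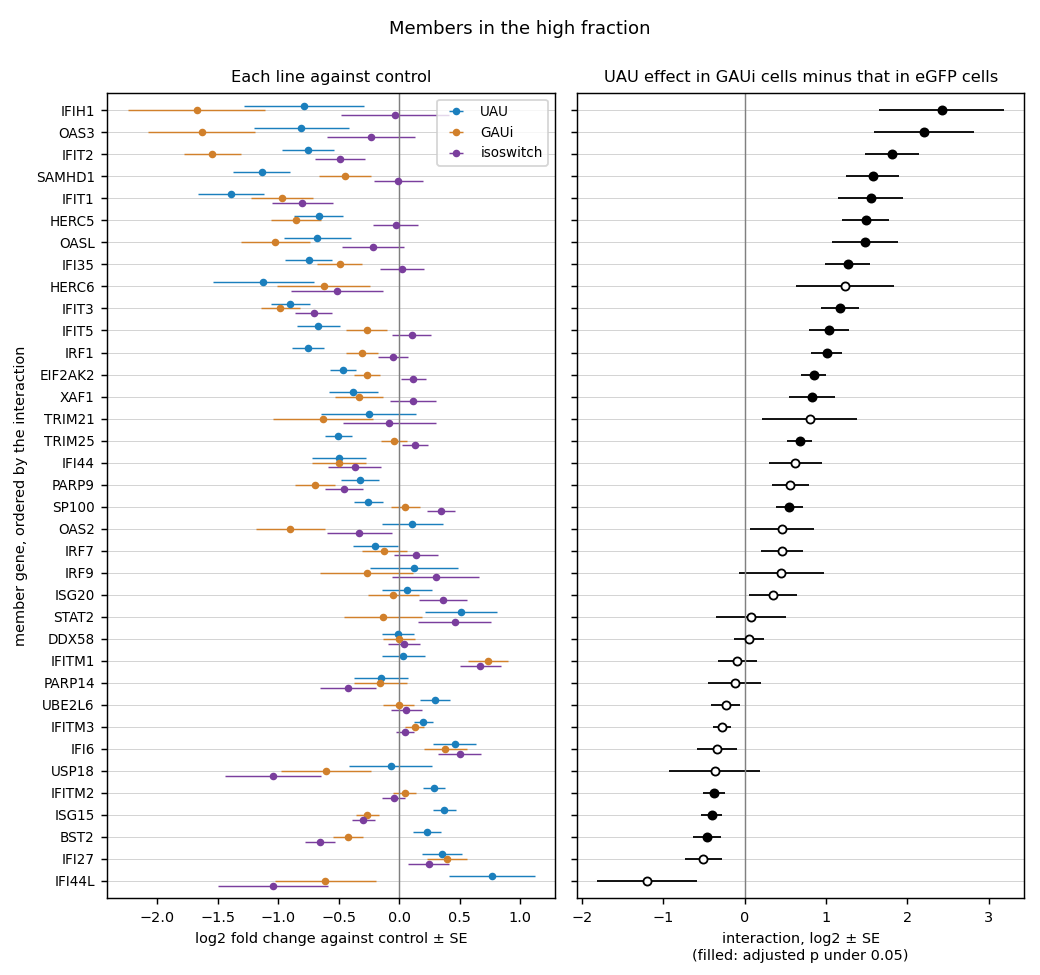
Members in the high fraction, ordered by the interaction. The left panel gives each line's log2 fold change against control and the right panel the interaction (x axes, log2, bars ± SE); filled points passed at an adjusted p under 0.05. From the top down to IFIT3, the UAU and GAUi points lie left of 0 and the isoswitch point lies nearer 0; BST2, ISG15 and IFITM2 are the 3 filled points left of 0.

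The change in the high fraction was also set against that in total RNA of the same lines, which asks whether polysome loading of an mRNA moved beyond its level. Only SAMHD1 in UAU cells passed (log2 ratio -1.34, SE 0.39, adjusted p = 0.0296), against 7.32% of all genes. Its UAU libraries had 10.5, 12.7 and 13.1 CPM in total RNA, a range that overlapped the 9.38, 10.6 and 11.5 CPM of control, and the lowest values of the 4 lines in the high fraction. Next in UAU cells was UBE2L6, in the other direction (0.63, adjusted p = 0.0649). In GAUi cells no member passed (0.718% of all genes; 6 at an unadjusted p under 0.05, 0 in DESeq2), the nearest being OAS3 (-1.87, adjusted p = 0.0592) and BST2 (0.60, adjusted p = 0.127). In isoswitch cells none passed either (0%; 2 and 0), with OASL (0.74) and OAS2 (0.80) at the smallest p. For IFIT1 and IFIT2 in UAU cells the ratio was -0.77 and -0.23 (adjusted p = 0.166 and 0.688), so a change beyond that in total RNA was not shown for them. The SAMHD1 call was lost in 7 of the 12 fits with 1 library left out, those without control total RNA A or B, UAU total RNA B or C, control high A or B or UAU high A (adjusted p up to 0.12). The count for UAU ranged from 0 to 4, and that for GAUi was 3 without GAUi total RNA A.

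The genes that make and carry the interferon signal were counted as a list of 39, of which 28 were tested in total RNA. The ligand genes IFNB1, IFNE, IFNL1, IFNL2 and IFNL3 had no count in any total RNA library, and the receptor gene IFNAR1 had 41.3 to 44.6 CPM in control. In GAUi total RNA, TYK2 (0.72, adjusted p = 0.00282), a kinase of the interferon signal, and SOCS3 (0.49, adjusted p = 0.00543), a feedback inhibitor, rose and none fell, beside 10.1% of all genes called. In isoswitch total RNA only TYK2 passed (0.53, adjusted p = 0.0394), beside 4.05%, and in UAU none, beside 0.914%. The list's median in GAUi total RNA was -0.015 on the log2 scale, beside 0.003 over all genes. In the high fraction of UAU cells 2 of 27 rose and 6 fell, beside 28.7% of all genes. In that of GAUi cells 1 rose and 1 fell, beside 10.1%, and in that of isoswitch cells 1 rose and none fell, beside 11%. The signalling adaptor TRAF3 rose in the high fraction of UAU (0.64, adjusted p = 5.3e-05) and GAUi cells (0.45, adjusted p = 0.00583), and the phosphatase PTPN1 fell in UAU (-0.60, adjusted p = 0.000136).

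A second list held 51 other interferon-stimulated genes, 41 of them tested in total RNA and 40 in each fraction. In GAUi total RNA 6 fell and 1 rose, beside 10.1% of all genes; among those lower were DTX3L, SAMD9 (-0.63, adjusted p = 0.00266), NMI (-0.74, adjusted p = 0.00344) and APOL6 (-0.57, adjusted p = 0.00561). In the high fraction 7 fell and none rose in GAUi, 10 fell and 2 rose in UAU, and 4 fell and 1 rose in isoswitch cells, beside 10.1%, 28.7% and 11% of all genes called. ZC3HAV1, the zinc finger antiviral protein, fell in all 3 (-0.55, -0.68 and -0.58), and LAP3, a peptidase, fell in UAU (-0.77, adjusted p = 5.73e-05). The interaction was called above 0 for 15 of the 40 and below 0 for 1, beside 35.7% of all genes in either direction, with LAP3 (1.07, adjusted p = 2.75e-05) and LGALS3BP (1.05, adjusted p = 7.65e-05) at the smallest p. The medians in the high fraction were -0.25 in UAU, -0.17 in GAUi and 0.03 in isoswitch cells, where those of the members were -0.25, -0.32 and -0.03. Of 21 targets of NF-kB, the other main pathway of innate sensing, 15 were tested in total RNA. NFKBIA, the inhibitor that NF-kB itself induces, was the only call there, beside 0.914%, 10.1% and 4.05% of all genes in UAU, GAUi and isoswitch cells. It had 156 ± 6.33 CPM in control, 114 ± 7.47 CPM in UAU, 102 ± 3.30 CPM in GAUi and 96.7 ± 8.31 CPM in isoswitch cells (SD, n = 3), and fell in UAU (-0.44, adjusted p = 0.0195), GAUi (-0.63, adjusted p = 0.000167) and isoswitch cells (-0.70, adjusted p = 7.19e-05). Of 12 targets tested in the high fraction, 2 fell in UAU, 1 fell in GAUi, and 1 fell and 1 rose in isoswitch cells, beside 28.7%, 10.1% and 11% of all genes.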

How the data were processed

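Messenger RNA 3′ ends (QuantSeq) were measured in 36 libraries of 12 groups. The deposited values are whole-number counts per gene symbol. STAR, featureCounts, DESeq2 and the build hg38 are listed in the submitters' processing notes, and versions, annotation and strand setting were not given in the sources used here. The members and lists were chosen with earlier results of these data known.

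Genes were kept per fraction with edgeR's filterByExpr (minimum count 10) and scaled by TMM. Quasi-likelihood tests (edgeR 4.0.16, R 4.3.3) pooled the 12 libraries of a fraction, 24 for the high-to-total ratio and 9 for the gradient in control cells; Benjamini-Hochberg adjustment ran over all genes tested, and a call needs an adjusted p under 0.05. The standard error is the fold change divided by the root of the F statistic. The scripts were tested on simulated data. Alternatives were DESeq2 1.42.0, its size factors (RLE) in edgeR, no filter, a replicate block, the compared groups alone and each library left out. Members called in at least 2 of 9 comparisons with control are given by library; where fewer than 2 members were called, the 2 of smallest p are named. Within a fraction, replicate letters did not pair libraries of different lines. The correlation of deviations between same-letter libraries ran from -0.076 to 0.103 in total RNA, -0.34 to 0.206 in the low and -0.12 to 0.198 in the high fraction. Pairing between fractions of the same line and letter was not checked. The ratio and gradient tests treated those libraries as unpaired, except in the alternative with a replicate block, which joined them by line and letter. Some genes of the marker and pathway lists are not reported here.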

Additional observations from a re-analysis of the deposited data

Results flagged for a closer look

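The effect of UAU overexpression differed between eGFP and GAUi cells, by an interaction tested in edgeR's quasi-likelihood model, for 19 values. Over all tested genes, 35.7% had such a call in the high and 0.233% in the low fraction. In the high fraction the log2 interaction was above 0 for IFIH1 at 2.42, OAS3 at 2.21, IFIT2 at 1.81, SAMHD1 at 1.57 and IFIT1 at 1.55. HERC5 (1.49), OASL (1.48), IFI35 (1.27), IFIT3 (1.17), IFIT5 (1.04) and IRF1 (1.01) came next, and EIF2AK2 (0.85), XAF1 (0.83), TRIM25 (0.68) and SP100 (0.55) were smaller. It was below 0 for BST2 (-0.46), ISG15 (-0.41) and IFITM2 (-0.38). In the low fraction IFITM2 had 0.90. IFIH1 and OAS3 rest on few counts: IFIH1 had 0.152 to 0.708 CPM in the GAUi high fraction, and its value lost its call without GAUi A, as that of OAS3 did without control A. The value of SP100 lost its call without control A or GAUi A, and that of XAF1 with DESeq2 or without control B, UAU B, GAUi B or isoswitch A (adjusted p up to 0.0819).

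The change of SAMHD1 in UAU cells differed between the high fraction and total RNA, with a log2 ratio of -1.34 (adjusted p = 0.0296), a call lost in 7 of 12 fits with 1 library left out (adjusted p up to 0.12). Over all tested genes, 7.32% were called in that comparison.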

How the results depend on the processing

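Of 114 calls of members over all comparisons, 62 held under every alternative that tested the gene, 52 were lost under at least 1, and 0 changed direction. With DESeq2, called members numbered 1 for isoswitch against GAUi in total RNA and in the low fraction, 1 for isoswitch against UAU in total RNA and 0 in the low fraction, 1 for UAU low, 2 for the low interaction and 3 for isoswitch high. Without the filter they were 3, 4 and 2 for isoswitch against GAUi, against UAU and the interaction in total RNA, 1, 2, 2 and 4 for UAU, isoswitch against GAUi, against UAU and the interaction in the low fraction, and 2 for the GAUi ratio. With only the groups compared they were 3, 5, 11 and 4 for UAU, GAUi, isoswitch and isoswitch against UAU in total RNA, 1 and 2 for isoswitch and isoswitch against GAUi in the low fraction, and 4 for the UAU ratio. RLE factors moved no count by over 1.5 times. The replicate block gave 1 for isoswitch against UAU in total RNA and 0 for the low interaction, and kept the other counts within 1.5 times (12 for GAUi total RNA, 18 for the high interaction). The cause of these changes was not tested.

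With 1 library left out, counts in total RNA ran from 6 (without control B) to 13 for GAUi, 2 to 4 for isoswitch, 0 to 1 for the interaction, 0 to 2 for isoswitch against UAU and 0 to 2 against GAUi. In the low fraction they ran from 0 to 1 for UAU, 2 to 7 for GAUi, 1 to 5 for isoswitch, 0 to 4 for the interaction and 0 to 3 for isoswitch against UAU. Without low-fraction control B, which stood apart from its replicates, the counts were 1 for UAU, 7 for GAUi, 5 for isoswitch and 4 for the interaction. In the high fraction they ran from 11 to 13 for UAU, 3 (without control A) to 8 for GAUi, 3 to 5 for isoswitch, 13 to 19 for the interaction, 12 to 15 for isoswitch against UAU and 1 to 5 against GAUi. The ratio gave 0 to 4 in UAU and 0 to 3 in GAUi cells, and the gradient 15 to 18. All 3 GAUi total RNA libraries differed from each other more than replicates of the other lines did. The chi-square per degree of freedom was 22.3 between A and B, 12.04 between A and C and 8.01 between B and C. Without A, the farthest from the others, the counts were 12 for GAUi, 2 for isoswitch against GAUi, 1 for the interaction and 3 for the GAUi ratio. Members at a few CPM, such as OAS2, OAS3, OASL and IFIH1, rest on few counts a library, which limits their precision.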
